A study of Saccharomyces cerevisiae with 10 samples.

Results

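The genes for the subunits of RNA polymerases I, II and III of Saccharomyces cerevisiae, with RRN3 and MAF1, were followed through 2 h in 1.5 M KCl. These 33 genes, of 5989 coding sequences counted, were chosen by name, from a list drawn up with earlier results of these data known. They comprised 7 genes for subunits of polymerase I alone, 7 of polymerase II alone, 10 of polymerase III alone, 2 shared by polymerases I and III and 5 shared by all 3 polymerases. RPC10 is among the genes shared by all 3 and RPC19 and RPC40 among those shared by I and III, whatever the letters of their names. All 33 passed the filter on low counts.

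Polymerase I makes the long precursor of the large ribosomal RNAs, polymerase II makes mRNAs, and polymerase III makes tRNAs and the smallest ribosomal RNA. The enzymes have a common plan, in which the largest and second-largest subunits form the active centre, a pair of small subunits forms a stalk near the RNA exit, and further subunits assist initiation, termination or RNA cleavage. Rrn3 binds polymerase I and brings it to its promoter, and Maf1 is a repressor of polymerase III whose activity is set largely by phosphorylation. Many genes of polymerases I and III carry a promoter element called PAC, named for polymerases A and C, the older names of I and III, and often an element called RRPE close to it.

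All libraries came from wild-type BY4741, a haploid laboratory strain of mating type a that lacks HIS3, LEU2, MET17 and URA3. Poly(A) RNA was sequenced before KCl was added (0 h, the controls) and after 0.5, 1, 1.5 and 2 h in 1.5 M KCl. Each of the 5 times had 2 libraries, from time series a and b, which the design text describes as independent replicates without saying how the cultures were started. The p-values rest on the spread between the 2 libraries of a time, estimated over all 5 times.

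The libraries held 3372373 to 8325291 reads on coding sequences, and in each of them LEU2 and MET17 had 0 reads. The 0.5 h library of series a held 162 reads of URA3, a gene that is deleted in this strain, against at most 5 in any other library, so counts at 0.5 h are given below also without that library. Reads on 4 open reading frames related to the 25S ribosomal RNA made up 0.056% and 0.060% of reads at 0 h and 0.512% and 0.545% at 0.5 h. They made up 1.129% and 1.140% at 1 h, 0.738% and 0.703% at 1.5 h, then 0.558% and 0.614% at 2 h. The part of these reads in the levels below was not tested. HIS3 had 21 reads over all libraries. Of the 6 markers of mating type a, STE2 ranged from 332 to 949 CPM over the libraries and ASG7, the lowest, from 10.4 to 24.1. Of the 4 markers of the other type, SAG1 ranged from 46.7 to 82.9, STE3 from 9.24 to 54.9 and MF(ALPHA)1 from 0.855 to 16.4. These markers moved over the course: at 1.5 h 5 of the 6 were lower and 1 higher, with STE2 at -1.76, and 2 of the 4 were higher, STE3 at 2.00 and MF(ALPHA)1 at 3.77. Their part in the results was not tested. Levels below are given as CPM, counts relative to library size after scaling by the TMM method. The marker ranges above are relative to library size without that scaling. A level is thus a share of a library, and fewer cells of a type and less RNA per cell cannot be told apart. Fold changes are log2 values against 0 h with their standard errors (SE), and each adjusted p comes from the quasi-likelihood test of edgeR fitted over all 5943 genes tested.

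The sequences upstream of 10 of the genes are shown first, because most genes of polymerases I and III had the core of the PAC element. No gene of polymerase II alone, or shared by all 3 polymerases, had it before the start codon. Each stretch runs from base 250 to base 51 before the start codon on the coding strand of the R64 reference genome from RefSeq. Capitals mark exact matches, on either strand, to the PAC core (GATGAG, or CTCATC on the other strand), extended where the longer PAC letters GCGATGAG are present, and to RRPE (AAAAATTTT, or AAAATTTTT on the other strand). The leading 4 are genes of polymerase I, or shared by I and III, with deep falls at 1.5 h, and the next 2 are polymerase III genes that fell.
RPA190 (chrXV:960737-960936, forward strand): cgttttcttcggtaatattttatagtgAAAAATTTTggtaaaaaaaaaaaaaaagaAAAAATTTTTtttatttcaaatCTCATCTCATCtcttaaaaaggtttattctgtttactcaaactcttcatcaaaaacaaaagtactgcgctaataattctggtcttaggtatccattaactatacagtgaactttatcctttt
RPA43 (chrXV:960233-960432, reverse strand): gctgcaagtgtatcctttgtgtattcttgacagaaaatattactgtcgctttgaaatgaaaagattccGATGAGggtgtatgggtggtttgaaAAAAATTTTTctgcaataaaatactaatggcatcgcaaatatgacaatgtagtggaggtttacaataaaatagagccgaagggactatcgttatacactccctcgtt
RPA135 (chrXVI:581247-581446, reverse strand): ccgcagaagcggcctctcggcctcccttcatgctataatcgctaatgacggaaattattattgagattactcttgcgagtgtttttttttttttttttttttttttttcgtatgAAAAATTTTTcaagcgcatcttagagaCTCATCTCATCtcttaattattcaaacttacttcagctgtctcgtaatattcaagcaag
RPC40 (chrXVI:746886-747085, reverse strand): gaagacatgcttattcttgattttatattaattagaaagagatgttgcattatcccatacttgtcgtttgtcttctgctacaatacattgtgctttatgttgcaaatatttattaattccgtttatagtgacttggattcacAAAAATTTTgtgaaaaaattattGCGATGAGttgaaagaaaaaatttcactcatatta
RPC34 (chrXIV:635348-635547, reverse strand): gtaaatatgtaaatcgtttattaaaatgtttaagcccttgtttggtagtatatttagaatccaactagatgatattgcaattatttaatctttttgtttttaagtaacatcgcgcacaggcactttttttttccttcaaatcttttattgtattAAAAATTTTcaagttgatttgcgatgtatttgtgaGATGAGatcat
RET1 (chrXV:733508-733707, reverse strand): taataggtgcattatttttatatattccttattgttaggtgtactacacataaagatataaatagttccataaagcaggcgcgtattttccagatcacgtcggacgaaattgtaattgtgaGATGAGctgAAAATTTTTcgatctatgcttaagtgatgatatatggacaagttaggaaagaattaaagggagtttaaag
The largest subunit gene and a stalk subunit gene of polymerase II are examples of promoters without PAC. The stalk gene, RPB4, went against its class at 1.5 h: it was called higher (0.24), where 4 of the 7 genes were lower.
RPO21 (chrIV:210612-210811, reverse strand): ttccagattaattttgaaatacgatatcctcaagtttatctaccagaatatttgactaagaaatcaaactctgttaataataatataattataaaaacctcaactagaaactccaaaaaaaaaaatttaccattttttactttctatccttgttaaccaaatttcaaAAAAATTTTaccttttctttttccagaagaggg
RPB4 (chrX:150711-150910, forward strand): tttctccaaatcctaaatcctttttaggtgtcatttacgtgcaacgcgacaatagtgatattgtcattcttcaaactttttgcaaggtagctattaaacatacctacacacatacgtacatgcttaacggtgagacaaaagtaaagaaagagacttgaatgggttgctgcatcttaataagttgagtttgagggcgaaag
RPA14 and RPC17 stand for the members of polymerases I and III that were not lower at 1.5 h, the former with both elements and the latter with neither.
RPA14 (chrIV:769275-769474, forward strand): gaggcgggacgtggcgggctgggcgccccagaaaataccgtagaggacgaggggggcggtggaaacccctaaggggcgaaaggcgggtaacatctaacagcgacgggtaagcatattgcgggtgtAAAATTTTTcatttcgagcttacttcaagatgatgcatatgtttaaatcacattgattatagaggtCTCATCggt
RPC17 (chrX:414821-415020, reverse strand): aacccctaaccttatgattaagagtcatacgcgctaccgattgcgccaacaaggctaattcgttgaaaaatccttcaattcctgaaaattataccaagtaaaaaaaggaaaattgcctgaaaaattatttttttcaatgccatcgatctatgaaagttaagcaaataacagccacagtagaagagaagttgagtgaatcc

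Within the 300 bases from 250 before to 50 after the start codon, the PAC core was found in 16 of the 19 genes of polymerases I and III, including those that these enzymes share. It was found in 1220 of 5984 such windows of all coding sequences (20.4%). The 3 genes without it were RPA12, RPC11 and RPC17. Among polymerase II genes it was found in RPB2 alone of 7, inside the coding sequence, and among the 5 genes shared by all 3 polymerases in 0. With only the 250 bases before the start codon searched, the 16 of 19 stood against 17% of all promoters and polymerase II had 0 of 7.

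The longer PAC letters were found in 6 of the 19 (RPA49, RPC19, RPC25, RPC31, RPC40 and RPC82), against 3.94% of all windows. RRPE was found in 12 of the 19, against 6.99% of all windows, and also in the polymerase II genes RPO21 and RPB9 and the shared genes RPB5 and RPO26. In RPA190, RPA135 and RPC53 the PAC core occurs as a pair of overlapping copies, which in RPA190 lie from 172 to 162 bases before the start codon. Of the regulators, RRN3 had a PAC core and MAF1 had neither element. The stress response element AGGGG, searched on both strands, was found in 3 of the 19 (RPA14, RPC17 and RPC31), against 21.6% of all windows. A match is a description of letters and does not show that a factor binds there. Between genes transcribed away from each other, it does not show to which of them it belongs. The PAC core pair of RPC53 begins 245 bases before its start codon, in an interval of 324 bases shared with SAS10. The PAC match of RPC25 begins 194 bases before its start codon, in an interval of 299 bases shared with LTV1.

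**Figure D1:**
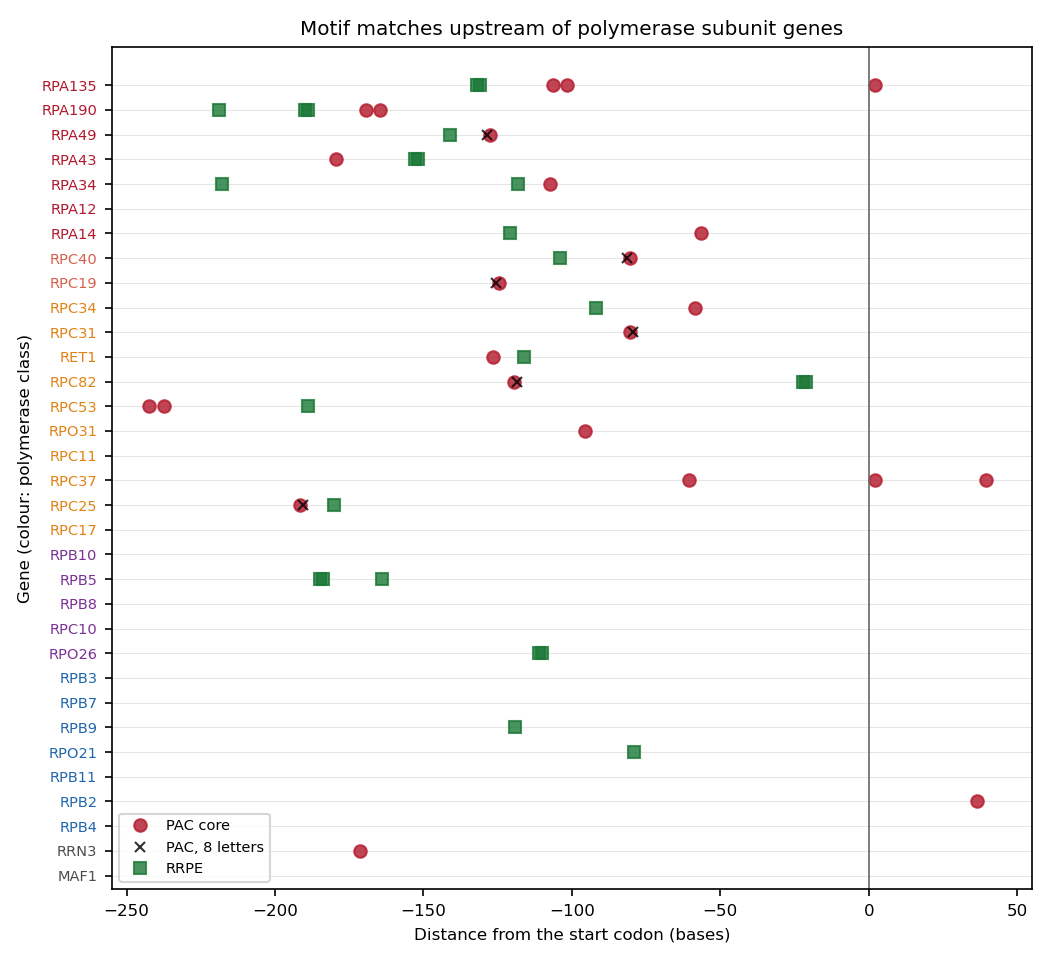
Positions of PAC core (red circles), longer PAC (crosses) and RRPE (green squares) matches against distance from the start codon in bases, with 1 line per gene and gene names coloured by polymerase class. PAC core matches before the start codon lie in 16 of 19 genes of polymerases I and III and in none of the 12 genes of polymerase II alone or shared by all 3.

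Against 0 h, most of the polymerase genes first rose slightly and then fell. By class medians the fall was deep for polymerase I, intermediate for polymerase III and shared subunits, and small for polymerase II, where its direction depended on the scaling of the libraries. At 0.5 h, 26 of the 33 genes were higher and 1, MAF1, was lower, where 26.0% of all genes tested were higher and 27.6% lower (53.7% in all). Without the 0.5 h library of series a, 27 were higher and 1 lower. At 1 h, 2 were higher and 12 lower (28.9% and 28.1% of all genes, 56.9% in all), and without either 1 h library or the 0 h library of series b only 1 was higher. At 1.5 h, 1 was higher and 28 lower (37.5% and 39.1%, 76.5% in all), and at 2 h, 0 were higher and 28 lower (37.8% and 37.0%, 74.9% in all). The median log2 fold change of the 33 genes was 0.31, -0.11, -0.86 and -0.78 at the 4 times, where that of all genes lay between -0.008 and 0.011.

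All 33 genes changed at some time when the 4 times were tested together, as did 91.7% of all genes. Between neighbouring times, 27 genes fell and 1 rose from 0.5 h to 1 h, where 32.1% of all genes fell and 32.9% rose (65.0% in all). The counts were the same without the 0.5 h library of series a, and without the 1 h library of series b 2 rose. From 1 h to 1.5 h, 28 fell and 1 rose (34.0% and 34.1% of all genes, 68.2% in all), and MAF1 was the gene that rose in both intervals. From 1.5 h to 2 h, 10 rose and 1 fell (15.5% and 9.47%). Without the 1.5 h library of series a those last counts were 6 and 0, and without the 2 h library of series b they were 5 and 0. The mean level was highest at 0.5 h in 28 of the 33 genes (84.8%), against 29.2% of all genes, and lowest at 1.5 h in 24 (72.7%), against 25.9%.

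**Figure D2:**
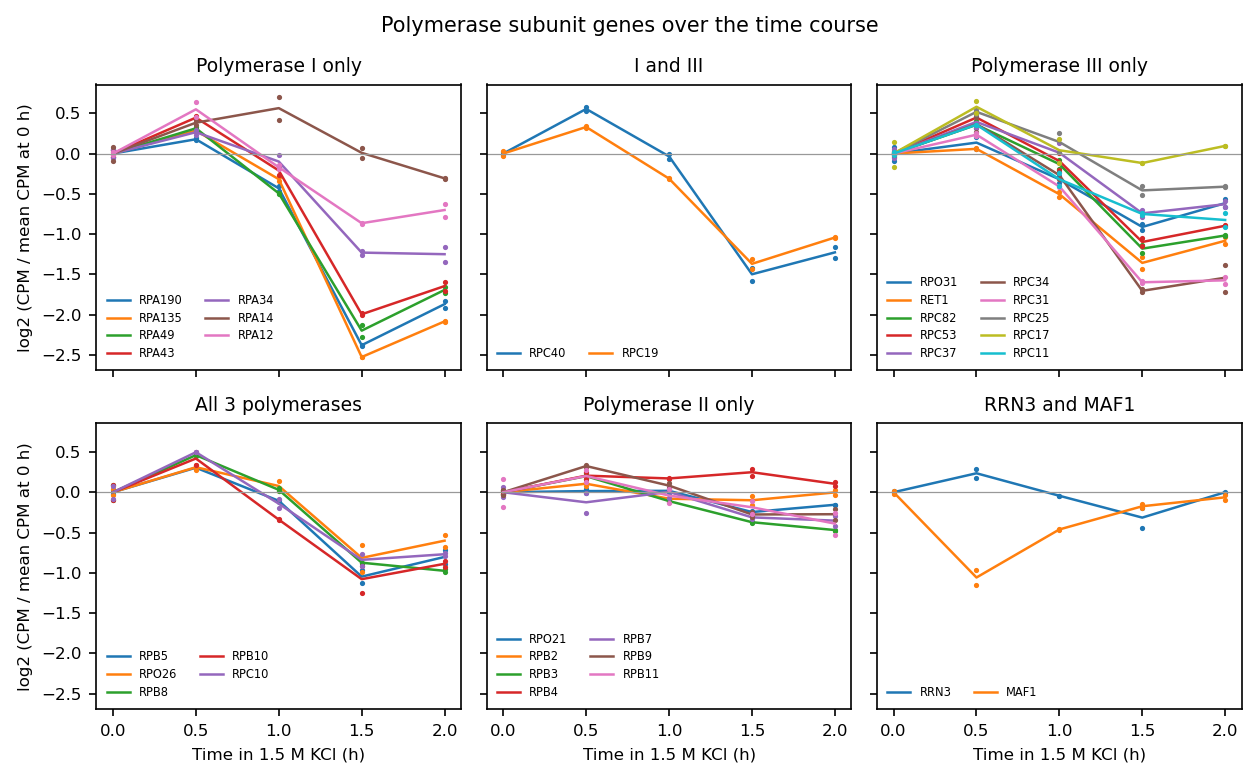
Level of each gene relative to its mean at 0 h (log2 of the CPM ratio) against time in 1.5 M KCl, by polymerase class; lines join means of 2 libraries and dots are single libraries. RPA135, RPA190, RPA49 and RPA43 lie lowest at 1.5 h, at -2.52 to -1.997 in the fitted values, where the genes of polymerase II alone lie between -0.37 and 0.24.

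For polymerase I, all 7 genes rose at 0.5 h, with a median of 0.31. At 1.5 h 6 had fallen, with a class median of -1.997, and at 2 h all 7 were lower, with a median of -1.63. RPA190, which encodes the largest subunit, had 568 and 606 CPM at 0 h, 657 and 669 at 0.5 h, 427 and 443 at 1 h, 112 and 113 at 1.5 h, then 165 and 156 at 2 h, in series a and b. RPA135, for the second-largest subunit, had 761 and 737 CPM at 0 h, 924 and 899.7 at 0.5 h, 589 and 612 at 1 h, 130.5 and 129.7 at 1.5 h, then 178 and 176 at 2 h. In both genes the 1.5 h and 2 h libraries lay far below every earlier one. Of all genes tested 39.1% were called lower at 1.5 h and 37.0% at 2 h. RPA190 was 5.2-fold lower at 1.5 h than at 0 h (-2.38, SE 0.06, adjusted p = 1e-17) and RPA135 was 5.76-fold lower (-2.52, SE 0.06, adjusted p = 1.8e-18). Both then rose from 1.5 h to 2 h, by 0.50 (SE 0.06, adjusted p = 1.1e-05) and 0.44 (SE 0.06, adjusted p = 2.2e-05), without coming near the level before KCl. The early rise of RPA190 was small (0.18, SE 0.05, adjusted p = 0.009) and was not called without the 0 h library of series a (0.13, adjusted p = 0.095) or the 0.5 h library of series b (0.16, adjusted p = 0.063), nor with libraries scaled by their size only (0.099, adjusted p = 0.13).

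RPA49 and RPA34 encode a pair of subunits that bind each other and act in initiation and elongation, and the pair did not fall equally. RPA49 was at -2.18 (SE 0.07) at 1.5 h and RPA34 at -1.23 (SE 0.07). From 1.5 h to 2 h RPA49 rose (0.50, SE 0.07, adjusted p = 5.5e-05) and RPA34 had a value of -0.04 (SE 0.07, adjusted p = 0.78). RPA12, whose product assists RNA cleavage and termination, rose by 0.56 at 0.5 h and was at -0.86 (SE 0.10) at 1.5 h. It is the gene of this class with no PAC or RRPE match.

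The stalk of polymerase I is formed by the products of RPA43 and RPA14. RPA43, which also makes the contact with Rrn3, had 163 and 153 CPM at 0 h, 219 and 211 at 0.5 h, 141 and 132 at 1 h, 40.1 and 39.3 at 1.5 h, then 48.6 and 52.5 at 2 h. It rose at 0.5 h (0.44, SE 0.06, adjusted p = 4e-06) and was 3.99-fold lower at 1.5 h (-1.997, SE 0.07, adjusted p = 2.9e-15). At 1 h it was at -0.22 (adjusted p = 0.0059), a call lost without the 0 h library of series a (-0.17, adjusted p = 0.065) or the 1 h library of series b (-0.16, adjusted p = 0.12). RPA14 went against its class. It had 102 and 90.9 CPM at 0 h, 129 and 123 at 0.5 h, 157 and 129 at 1 h, 101 and 93.2 at 1.5 h, then 77.9 and 78.3 at 2 h, so that its highest mean was at 1 h. It was higher at 1 h (0.54, SE 0.09, adjusted p = 2.9e-05), when RPA190, RPA135, RPA49 and RPA43 were lower. At 1.5 h it stood at -0.002 (SE 0.09, adjusted p = 0.99), and at 2 h at -0.31 (adjusted p = 0.0056), a call lost without the 0 h library of series a (-0.22, adjusted p = 0.088). RPA14 overlaps the open reading frame YDR157W on chromosome IV, so its counts are uncertain. When libraries were scaled by their size only, it was higher at 1.5 h (0.32, adjusted p = 0.0027) and not called at 2 h (-0.02, adjusted p = 0.83).

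RPA43 and RPA190 are neighbours on chromosome XV, transcribed away from each other, with 804 bases between their coding sequences (at 959202 to 960182 and 960987 to 965981 in R64). That interval holds a PAC core 177 bases from the RPA43 start codon and the overlapping pair 162 and 167 bases from the RPA190 start codon. The nearest RRPE matches lie 148 bases from RPA43 and 185 bases from RPA190.

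The subunits shared by polymerases I and III, RPC40 and RPC19, form the platform on which these enzymes assemble. RPC40 had 286 and 292 CPM at 0 h, 417 and 432 at 0.5 h, 275 and 289 at 1 h, 96.6 and 108 at 1.5 h, then 117 and 129.8 at 2 h, and RPC19 had 117 and 122 CPM at 0 h, 151 and 148 at 0.5 h, 95.8 and 96.5 at 1 h, 48.2 and 44.2 at 1.5 h, then 58.3 and 57.6 at 2 h. In both genes the 0.5 h libraries were the highest and the 1.5 h libraries the lowest, without overlap with the 0 h libraries. Of all genes tested 26.0% were called higher at 0.5 h and 39.1% lower at 1.5 h. RPC40 rose at 0.5 h (0.56, SE 0.06, adjusted p = 2e-07), was at -0.03 at 1 h (adjusted p = 0.68) and fell 2.8-fold at 1.5 h (-1.49, SE 0.07, adjusted p = 4.8e-14). RPC19 was at 0.33, -0.31, -1.38 and -1.04, all called. Both rose between 1.5 h and 2 h, by 0.28 and 0.34 (adjusted p = 0.0064 and 0.0031).

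For polymerase III, 8 of 10 genes rose at 0.5 h, with a median of 0.36, and 9 had fallen at 1.5 h, with a median of -1.01. At 2 h 9 were lower, with a median of -0.84. All 10 had their highest mean at 0.5 h. Over the 19 genes of polymerases I and III together, the 0.5 h median was 0.36, and 0.32 without the 0.5 h library of series a. RPO31, for the largest subunit, had 212 and 240.1 CPM at 0 h, 235 and 262 at 0.5 h, 176 and 187 at 1 h, 118 and 123 at 1.5 h, then 142 and 153 at 2 h. RET1, for the second-largest subunit, had 218 and 225 CPM at 0 h, 232 and 229 at 0.5 h, 153 and 159 at 1 h, 81.7 and 91.1 at 1.5 h, then 102 and 108 at 2 h. These largest genes were the 2 of the class without a called rise at 0.5 h (0.14, adjusted p = 0.082, and 0.06, adjusted p = 0.42), although RPO31 was called with the replicate block (0.14, adjusted p = 0.031), with DESeq2's size factors (0.19, adjusted p = 0.022) and without the 0 h library of series b (0.24, adjusted p = 0.017) or the 0.5 h library of series a (0.21, adjusted p = 0.032). At 1.5 h RPO31 was 1.87-fold lower (-0.91, SE 0.07, adjusted p = 5.2e-10) and RET1 2.54-fold lower (-1.34, SE 0.06, adjusted p = 1.4e-13).

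RPC82, RPC34 and RPC31 encode a subcomplex needed for initiation by polymerase III. At 1.5 h they were at -1.19, -1.70 and -1.60 (SE 0.07, 0.11 and 0.07), and the latter pair had the deepest values of the class. RPC34 contacts the initiation factor Brf1, and had 63.4 and 62.4 CPM at 0 h, 86.2 and 75.8 at 0.5 h, 53.9 and 50.6 at 1 h, 19.1 and 19.6 at 1.5 h, then 19.1 and 24.1 at 2 h. RPC53 and RPC37 encode a pair that acts in termination and reinitiation, and stood at -1.10 and -0.75 (SE 0.08 and 0.09). RPC11, for the RNA cleavage subunit, was at -0.75 (SE 0.11). At 1 h RPC34 and RPC11 were called lower (-0.28 and -0.30, adjusted p = 0.021 and 0.023), and both calls were lost with DESeq2's Wald test (adjusted p = 0.088 and 0.09) and without either 0 h library (adjusted p = 0.051 to 0.089). The RPC34 call was lost also without the 1 h library of series b (-0.22) and the RPC11 call without that of series a (-0.25), while without that last library RPC82 and RPC53 were called lower (-0.19 and -0.20, adjusted p = 0.048 and 0.042).

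The stalk of polymerase III, formed by the products of RPC25 and RPC17, had the values nearest to 0 of its class at 1.5 h. RPC25 had 45.1 and 45.2 CPM at 0 h, 66 and 63.4 at 0.5 h, 53.9 and 45.9 at 1 h, 31.7 and 34 at 1.5 h, then 33.7 and 34.2 at 2 h. It rose at 0.5 h (0.51, SE 0.09, adjusted p = 0.00013) and was lower at 1.5 h (-0.45, SE 0.10, adjusted p = 0.00054), a call lost when libraries were scaled by their size only (-0.13, adjusted p = 0.26), as was its call at 2 h (-0.12, adjusted p = 0.28). RPC17 had 24.2 and 19.4 CPM at 0 h, 34.4 and 30.8 at 0.5 h, 24.7 and 20.1 at 1 h, 20.04 and 20.1 at 1.5 h, then 23.3 and 23.3 at 2 h. It rose at 0.5 h (0.57, SE 0.14, adjusted p = 0.0024), and its 1.5 h and 2 h values were -0.12 (SE 0.15, adjusted p = 0.49) and 0.10 (SE 0.15, adjusted p = 0.57). Under that scaling its 2 h value was called higher (0.38, adjusted p = 0.025). With 85 to 227 reads per library, its SE was the largest among the 33 genes at these times.

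All 5 genes shared by the 3 polymerases rose at 0.5 h, with a median of 0.43, and all 5 were lower at 1.5 h and 2 h, with medians of -0.87 and -0.82. They encode small subunits, of which RPB10 and RPC10 lie beside the assembly platform. RPB5 had 202 and 209 CPM at 0 h, 252 and 255 at 0.5 h, 189 and 193 at 1 h, 94 and 105 at 1.5 h, then 124 and 111 at 2 h. RPO26 had 200.3 and 210.4 CPM at 0 h, 249 and 261 at 0.5 h, 207 and 226 at 1 h, 104 and 130.1 at 1.5 h, then 142 and 129 at 2 h. RPB8 had 221 and 193 CPM at 0 h, 283 and 287 at 0.5 h, 214 and 209 at 1 h, 113 and 113 at 1.5 h, then 107 and 104 at 2 h. In each of these genes, as in RPB10 and RPC10, both 1.5 h libraries lay below both 0 h libraries. Of all genes tested 39.1% were called lower at that time, and how many separate in this way was not counted. RPB10 had 83.6 and 94.6 CPM at 0 h, 112 and 126 at 0.5 h, 69.98 and 70.8 at 1 h, 37.3 and 47.1 at 1.5 h, then 46.8 and 49.5 at 2 h. RPC10 had 93.6 and 83.2 CPM at 0 h, 125 and 125 at 0.5 h, 83.3 and 76.9 at 1 h, 52 and 46.9 at 1.5 h, then 52.6 and 51.2 at 2 h. The 5 fell by similar amounts at 1.5 h, from -1.04 (SE 0.10) for RPB10 to -0.79 (SE 0.08) for RPO26, so they lay between the medians of polymerases I and II and near that of III. At 1 h only RPB10 of the 5 was called lower (-0.34, SE 0.10, adjusted p = 0.0059), and not without the 0 h library of series b (-0.25, adjusted p = 0.086), while RPC10 was called lower without that library (-0.24, adjusted p = 0.039).

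For polymerase II, 3 of 7 genes rose at 0.5 h (RPB3, RPB4 and RPB9), with a class median of 0.19. The median was 0.13 without the 0.5 h library of series a. When libraries were scaled by their size only, 3149 of all genes tested were called at 0.5 h, 36.6% of them higher. Of the 7 genes, 1 then rose and the median was 0.11, with RPB3 and RPB4 no longer called (adjusted p = 0.074 and 0.075). At 1.5 h 4 were lower and 1, RPB4, was higher, with a median of -0.24, and at 2 h 5 were lower, with a median of -0.25. Scaled by library size only, 4795 of the 5943 genes tested were called at 1.5 h, 68.4% of them higher, and the median of all genes was 0.31. At 2 h that scaling called 4716, 68.2% of them higher, with a median of 0.29. Of the 7 genes, 0 were then lower and 2 higher at 1.5 h, with a median of 0.07. At 2 h 1 of them was lower and 3 were higher, with a median of 0.03. At 2 h 3 were lower without the 0 h or the 2 h library of series a. RPO21, for the largest subunit, had 624 and 602 CPM at 0 h, 609 and 629.9 at 0.5 h, 608 and 633 at 1 h, 514 and 521 at 1.5 h, then 551 and 549.9 at 2 h. RPB2, for the second-largest subunit, had 409 and 428 CPM at 0 h, 442 and 459 at 0.5 h, 392 and 399.7 at 1 h, 376 and 405 at 1.5 h, then 409 and 426 at 2 h. Libraries of RPO21 spanned 514 to 633 CPM over the course and those of RPB2 376 to 459 CPM. RPO21 was 1.19-fold lower at 1.5 h (-0.24, SE 0.05, adjusted p = 0.0003), and RPB2 was not called against 0 h at any time with TMM scaling. With DESeq2's size factors RPB2 was called higher at 0.5 h (0.15, adjusted p = 0.029).

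RPB7 and RPB4 encode the stalk of polymerase II. RPB7 had 92.5 and 85 CPM at 0 h, 74.3 and 88.4 at 0.5 h, 93.3 and 84.6 at 1 h, 72.2 and 70.7 at 1.5 h, then 66.4 and 72.5 at 2 h, and was lower at 1.5 h (-0.32, SE 0.09, adjusted p = 0.0029). RPB4 had 145 and 142 CPM at 0 h, 161 and 170.5 at 0.5 h, 163 and 161 at 1 h, 176 and 166 at 1.5 h, then 152 and 157 at 2 h, and its 1.5 h libraries lay above both 0 h libraries. It was the gene of the 33 called higher at 1.5 h (0.24, SE 0.06, adjusted p = 0.00095). It was also called higher at 0.5 h and 1 h (0.21 and 0.17, adjusted p = 0.006 and 0.023), calls lost without the 0.5 h library of series b (0.16, adjusted p = 0.099) and, at 1 h, without either 1 h library or the 0 h library of series b (0.15 to 0.18, adjusted p = 0.069 to 0.099) and with DESeq2's Wald test (adjusted p = 0.17).

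RPB3 and RPB11, counterparts of RPC40 and RPC19 in the assembly platform, were at -0.37 (SE 0.06, adjusted p = 4.5e-06) and -0.20 (SE 0.12, adjusted p = 0.12) at 1.5 h, and RPB11 was called without the 0 h library of series b (-0.37, adjusted p = 0.015). RPB9, a counterpart of RPA12 and RPC11 that acts in start site choice and proofreading, was at -0.28 (SE 0.08, adjusted p = 0.0044). The small falls of polymerase II depend on the scaling: with library size alone, which shifts the median of all genes by 0.32 at 1.5 h, RPO21, RPB7 and RPB9 had values of 0.07, 0.00 and 0.04, and RPB3 was not called (-0.05). At 2 h RPB7, RPB11 and RPB9 had values of -0.05, -0.06 and 0.03 under it and were not called. At 2 h RPB11 was not called without the 0 h or the 2 h library of series a (-0.16 and -0.26), RPO21 not without the 0 h library of series a or the 2 h library of series b (-0.13 and -0.15), and RPB9 not without the 2 h library of series a or the 0 h library of series b (-0.21 and -0.22).

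**Figure D3:**
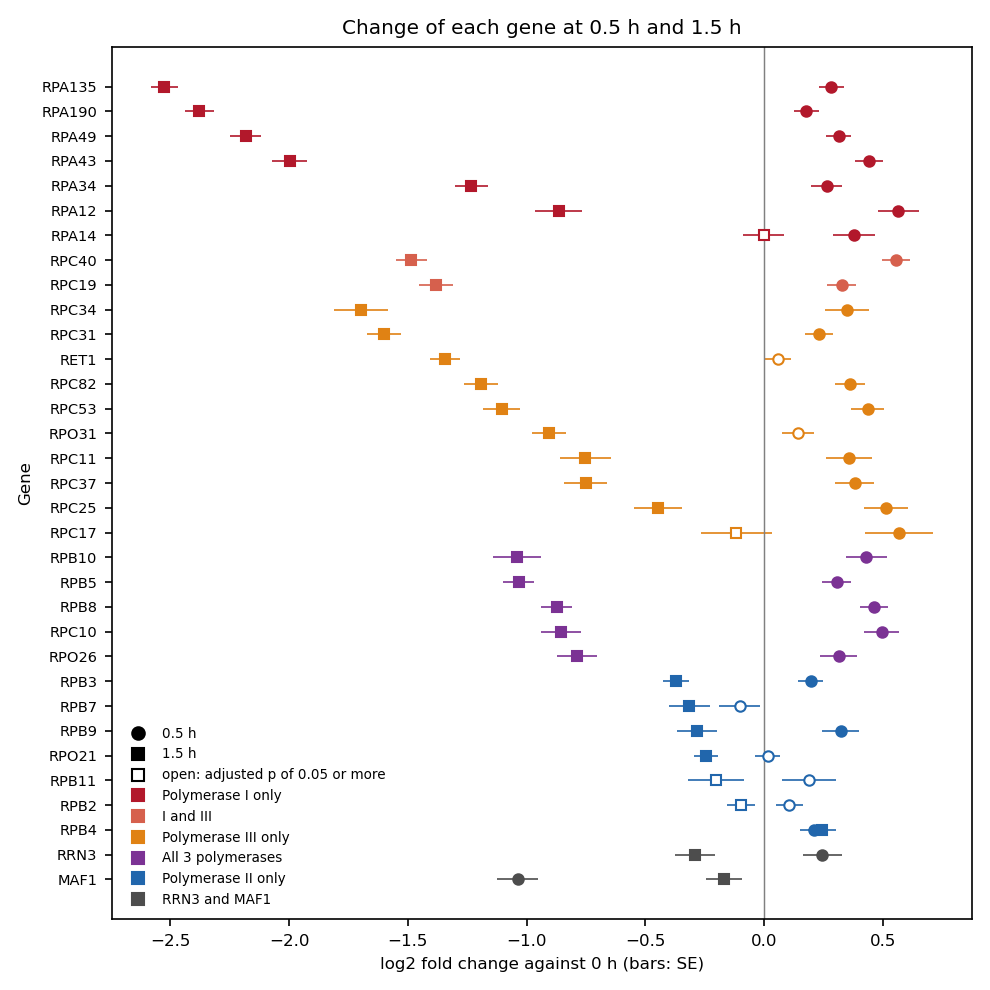
log2 fold change against 0 h of each gene at 0.5 h (circles) and 1.5 h (squares), with bars of 1 SE, coloured by polymerase class; open symbols had an adjusted p of 0.05 or more. At 1.5 h values run from -2.52 for RPA135 to 0.24 for RPB4, and RPA14 and RPC17 are the open squares of polymerases I and III.

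Counterpart subunits of the 3 enzymes were compared on the scale of CPM per kilobase of coding sequence, on which levels of different genes can be set side by side. Before KCl, the largest subunit genes of polymerases I and II had close levels, with 114 and 121 CPM per kilobase for RPA190 and 120 and 116 for RPO21, and RPO31 had 48.3 and 54.8. At 1.5 h RPA190 was at 22.5 and 22.7, RPO21 at 98.7 and 100.2 and RPO31 at 26.8 and 28.1. RPA190 had thus gone from the level of RPO21 to below that of RPO31 in both series, and the log2 ratio of RPA190 to RPO21 went from -0.08 and 0.07 to -2.13 and -2.14.

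The second-largest subunit genes began in the order RPA135, RPB2, RET1, at 211 and 204, 111 and 116 and 63 and 65.2 CPM per kilobase. At 1.5 h RPA135 was at 36.1 and 35.9, RPB2 at 102 and 110.1 and RET1 at 23.7 and 26.4, so that RPB2 led. The log2 ratio of RPA135 to RPB2 went from 0.92 and 0.81 to -1.50 and -1.62, and that of RET1 to RPB2 from -0.82 and -0.84 to -2.11 and -2.06. Of the stalk genes, RPA43 to RPB7 went from -0.11 and -0.08 to -1.78 and -1.78, whereas RPC25 to RPB7 went from -1.35 and -1.22 to -1.49 and -1.36 and RPA14 to RPB4 from 0.18 and 0.04 to -0.11 and -0.14. In the assembly platform, RPC40 to RPB3 went from 0.45 and 0.52 to -0.72 and -0.57, and RPC19 to RPB11 from 0.81 and 1.21 to -0.20 and -0.17. In the cleavage subunits, RPA12 to RPB9 went from -0.15 and -0.18 to -0.78 and -0.73. Ratios within a library do not depend on the scaling of libraries. The ratios are given as a description, with no test.

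**Figure D4:**
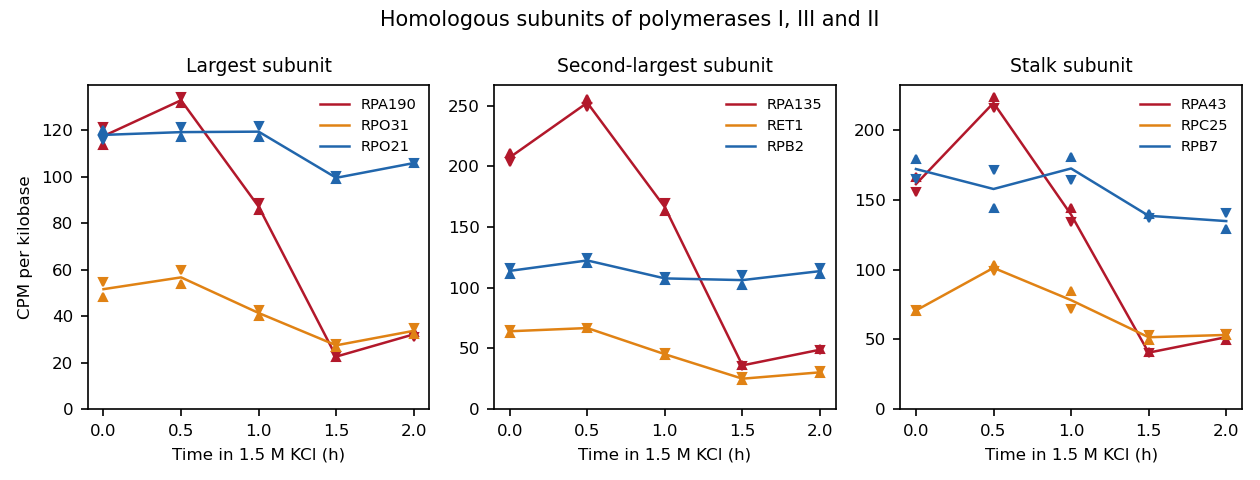
CPM per kilobase of coding sequence against time in 1.5 M KCl for the largest, second-largest and stalk subunit genes of polymerases I (red), III (orange) and II (blue); lines join means, upward triangles are series a and downward triangles series b. At 1.5 h and 2 h RPA190, RPA135 and RPA43 lie below their polymerase II counterparts in all libraries, with RPA190 at 22.5 and 22.7 and RPO21 at 98.7 and 100.2 at 1.5 h.

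As class means per kilobase, polymerase I genes were at 231 and 222 at 0 h, 287 and 284.0 at 0.5 h, then 98.8 and 95.3 at 1.5 h. Polymerase III genes were at 89.3 and 87.9, 115 and 110.3, and 44.8 and 44.5 at these times. Polymerase II genes were at 165 and 158, 177 and 180.1, and 147 and 144. The genes shared by all 3 polymerases had the highest class mean at each of these times, at 415 and 409, 535 and 556, and 208 and 228. Within polymerase I, genes differed in level before KCl, from 114 and 121 CPM per kilobase for RPA190 to 534 and 497 for RPA34, and within polymerase III from 49.7 and 39.96 for RPC17 to 166 and 164 for RPC31.

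Among the regulators of the enzymes, MAF1 took a course of its own. RRN3, like most of the genes, had its highest mean at 0.5 h and its lowest at 1.5 h. MAF1 had 79.7 and 77.7 CPM at 0 h, 35.3 and 40.3 at 0.5 h, 57.2 and 57 at 1 h, 68.5 and 71 at 1.5 h, then 76.9 and 73.8 at 2 h. Both 0.5 h libraries lay below every other library, and the level then climbed back toward that of 0 h. It was 2.05-fold lower at 0.5 h (-1.04, SE 0.09, adjusted p = 8.1e-09), when 26 of the other genes, RRN3 among them, were higher, and was still lower at 1 h (-0.46, SE 0.08, adjusted p = 8.1e-05). At 1.5 h the value was -0.17 (SE 0.07, adjusted p = 0.049), a call that was lost with DESeq2's Wald test (adjusted p = 0.21), with library size alone (0.15, adjusted p = 0.078), with DESeq2's size factors or upper-quartile factors (adjusted p = 0.056 and 0.31), with only both times in the fit (adjusted p = 0.14) and without either library of 0 h, 1.5 h or 2 h or the 1 h library of series b (adjusted p = 0.054 to 0.16).

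RRN3 had 79.9 and 78.4 CPM at 0 h, 89.6 and 96.7 at 0.5 h, 76.7 and 76.9 at 1 h, 58.1 and 69.1 at 1.5 h, then 79.5 and 78.8 at 2 h. It was higher at 0.5 h (0.24, SE 0.08, adjusted p = 0.017) and lower at 1.5 h (-0.29, SE 0.08, adjusted p = 0.0041), and its 2 h value was -0.001 (SE 0.08). The early call was lost without the 0.5 h library of series b (0.18, adjusted p = 0.19) or the 0 h library of series b (0.23, adjusted p = 0.077), and with library size alone (0.17, adjusted p = 0.097), under which the 1.5 h value was 0.03. RRN3 thus moved within a range of 58.1 to 96.7 CPM, while RPA43, whose product it binds, ranged from 39.3 to 219 CPM.

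**Figure D5:**
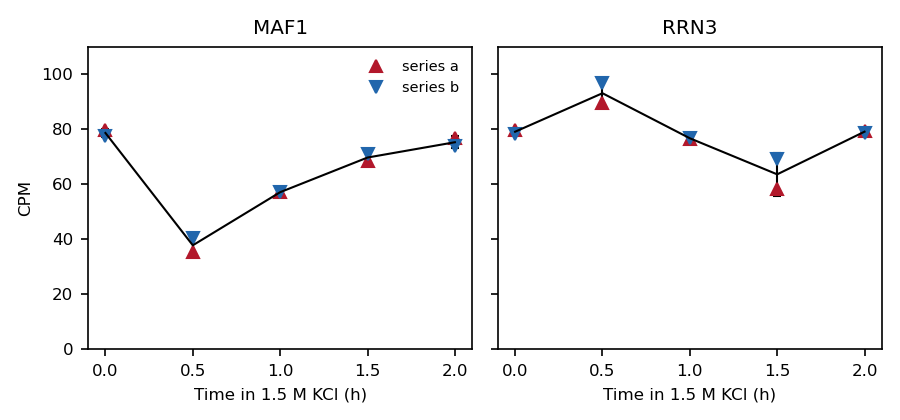
CPM of MAF1 (left) and RRN3 (right) against time in 1.5 M KCl, with series a as upward triangles, series b as downward triangles, and the mean of 2 libraries with its SD. MAF1 is at 35.3 and 40.3 CPM at 0.5 h against 79.7 and 77.7 at 0 h, and RRN3 is at 89.6 and 96.7 against 79.9 and 78.4.

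Changes at 1.5 h were set beside the PAC core as a description, with no test. The median log2 fold change of the 17 subunit genes with it in the 300-base window was -1.34 and that of the 14 without was -0.56, where all genes with it (1208) had a median of -0.29 and those without (4730) of 0.04. All 236 genes tested with the longer PAC letters had a median of -1.06. The members with PAC are nearly all genes of polymerases I and III, so class and motif cannot be told apart here. Single genes lay on either side of these medians. Of genes with a PAC core and RRPE, RPA135 was at -2.52 and RPA14, whose counts are uncertain, at -0.002. Of genes with neither, RPC17 was at -0.12 and RPB10 at -1.04.

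Dot6 and Tod6 are repressors that bind the PAC element, Stb3 binds RRPE, and Sfp1 is an activator of ribosome synthesis genes. The mRNAs of both PAC repressors were lower at 1.5 h. TOD6 had 119 and 127 CPM at 0 h, 141 and 138 at 0.5 h, 79.98 and 75.8 at 1 h, 28.4 and 32.4 at 1.5 h, then 52.8 and 45.8 at 2 h, which is -1.99 at 1.5 h (SE 0.09, adjusted p = 4.1e-14), and DOT6 had 858 and 799.5 CPM at 0 h, 645 and 646 at 0.5 h, 499.6 and 499.5 at 1 h, 382 and 381 at 1.5 h, then 359 and 370.1 at 2 h, which is -1.12 (SE 0.05, adjusted p = 2e-13). TOD6 was higher at 0.5 h (0.18, adjusted p = 0.036) and rose again from 1.5 h to 2 h (0.64, adjusted p = 7.4e-05). STB3 was lower at 0.5 h (-0.37, adjusted p = 0.00015) and higher at 1.5 h (0.33, adjusted p = 9.4e-05), and SFP1 was at -0.19 and 0.05 at these times (adjusted p = 0.038 and 0.53).

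Genes of factors that work with the polymerases were counted at 1.5 h, when 37.5% of all genes tested were higher and 39.1% lower, and the counts are given as a description. Of 10 genes of polymerase I promoter factors and rDNA proteins, 2 were higher and 6 lower (median -0.53). The deepest were NET1 (-0.94, SE 0.06), whose product binds the rDNA, and HMO1 (-0.81, SE 0.06), for a high-mobility-group protein of the rDNA. Of 9 genes of polymerase III initiation factors, 7 were higher and 1, BRF1, lower (median 0.42). BRF1 was at -0.68 (SE 0.08, adjusted p = 1.1e-07) and TFC4, for a subunit of the tRNA promoter factor, at 0.65 (SE 0.07, adjusted p = 1.4e-07). Of 19 genes of general factors of polymerase II, 5 were higher and 5 lower (median 0.07), also below the shares of all genes, with CCL1 at 1.15 and RAD3 at -0.93, both of the factor that opens promoter DNA.

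Of 25 Mediator genes, 7 were higher and 7 lower (median 0.09), both shares below those of all genes, with SRB2 at -1.36 and SOH1 at 0.88. Of 13 genes for assembly and nuclear import of polymerases, 3 were higher and 8 lower (median -0.38). NPA3, for a GTPase needed for import of polymerase II, was at -0.96 and PIH1, for a chaperone cofactor, at 1.16. Of 13 genes listed for the control of Maf1 and polymerase III, kinases and phosphatases among them, 4 were higher and 9 lower (median -0.36). The phosphatase gene PPH3 was at -0.85. SPT15, for the TATA-binding protein that serves all 3 polymerases, rose at 0.5 h (0.37, adjusted p = 7.2e-06) and was lower at 1.5 h (-0.30, adjusted p = 3.9e-05). The open reading frames related to the 25S ribosomal RNA, RRT15, YLR154C-G, TAR1 and YLR162W, were higher at 1.5 h by 3.98, 3.88, 2.83 and 3.23. At that time 6 of the 7 genes of polymerase I were lower. Related sequences are repeated in the rDNA, so the counts of these frames are uncertain.

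Neighbouring genes, chosen for mention after their values were seen, moved with some of the genes and against others. RPO26 and PZF1, for the polymerase III factor of the smallest ribosomal RNA, are transcribed away from each other with 234 bases between them, and at 1.5 h RPO26 was at -0.79 and PZF1 at 0.38 (SE 0.09, adjusted p = 0.00097). Across divergent intervals of 524, 883 and 467 bases, RPA14 faced CPR1 (1.09), RPO31 faced RPT5 (1.05) and RET1 faced PTP2 (0.84). By contrast, RPC53 faced SAS10 (-1.46), RPC25 faced LTV1 (-1.43), RPC37 faced DBP7 (-1.10) and RPA49 faced YNL247W (-1.40), neighbours that fell with them.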

How the data were processed

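Poly(A) RNA of 10 libraries, 2 at each of 5 times, had been sequenced, and a table of read counts per coding sequence was deposited. The column header calls them raw, yet 2.77% of the deposited counts were not whole, so they were handled as estimated counts and rounded. R64 is the build in the submitters' processing notes. No aligner is given in the sources used here, nor whether counting used strand. From 65885 lines, 1302 gene and mRNA lines and 4693 repeated lines were left out, which left 59890.

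The 33 genes and the other gene lists were chosen with earlier results of these data known. Counts were tested with edgeR 4.0.16 (R 4.3.3) by its quasi-likelihood test, with TMM scaling (factors of 0.8765 to 1.161), filterByExpr (46 genes left out, 5943 tested) and the time group as the only term, in all 10 libraries. Tests were two-sided with Benjamini-Hochberg adjustment over the 5943 genes, and 0.05 was the threshold for a call. Each SE is the size of the log2 fold change over the root of its F statistic. The biological coefficient of variation was 4.05%. The pipeline was tested on simulated data. Alternatives were DESeq2 1.42.0, 3 other scalings, no filter, a replicate block, other rounding, fewer samples in the fit and each library left out.

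All 33 genes were named, with values of both libraries for the largest, second-largest, stalk and shared subunits, the regulators and genes that went against their class. Of the other lists, the 2 genes with the largest called change at 1.5 h were named, with all PAC and RRPE regulators, SPT15 and the rDNA reading frames; RPC34 and the neighbouring genes are additions. One gene that this rule names is not reported here. The name PBF1, on the regulator list, was not found in the table. In the labels, letters distinguish the time series. Deviations of series a from the time means had a Pearson correlation of -0.113 to 0.313 between times, over 5613 genes, which are not independent replicates. Promoters were read from the R64 genome, in which all 33 genes begin with ATG, and motifs were exact matches.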

Additional observations from a re-analysis of the deposited data

How the results depend on the processing

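Over 18 alternatives, 2297 of 2376 values of single genes against 0 h kept a call in the same direction or stayed uncalled. The direction of values that stayed uncalled was not compared. Of the rest, 51 lost and 16 gained a call. The other 12 reversed with a call in either fit, all with library size alone as the scaling. That scaling shifts the median of all genes by 0.32 at 1.5 h and 0.28 at 2 h, and the reversed values were 0.317 for RPA14, 0.074 for RPO21, 0.221 for RPB2, 0.004 for RPB7, 0.036 for RPB9, 0.029 for RRN3 and 0.15 for MAF1 at 1.5 h, and 0.128 for RPO21, 0.284 for RPB2, 0.031 for RPB9, 0.282 for RRN3 and 0.212 for MAF1 at 2 h. Under it, 4795 of all genes were called at 1.5 h, 68.4% of them higher, and 4716 at 2 h, 68.2% of them higher. Of the 33 genes, 3 were higher at 1.5 h, 6 at 2 h, 2 from 0.5 h to 1 h and 3 from 1 h to 1.5 h, and 2 were lower from 1.5 h to 2 h. Scaling by library size alone multiplies all levels of a library by its TMM factor, and 146 of 165 levels per kilobase moved by more than the SD. With upper-quartile factors 1 of the 33 genes was higher at 1 h, 1 at 2 h and 2 from 1 h to 1.5 h, and 2 were lower from 1.5 h to 2 h. Those factors called 3397 of all genes at 1 h, 46.2% of them higher, and 4476 at 2 h, 53.9% of them higher. With DESeq2's Wald test 1 was higher at 1 h. When a change of at least 1.5-fold was also required, 0 genes were higher at 0.5 h, 1 h and 1.5 h and 0 lower at 1 h. With that requirement 21 were lower at 1.5 h and 21 at 2 h. The share of all genes that pass it is not available here, so these counts have no background to be set against. With the replicate block, 2 genes were higher from 0.5 h to 1 h, and the RPO31 call at 0.5 h was the only call against 0 h of the 33 genes to change. Leaving out each library gave 1 to 2 genes higher at 1 h, 1 to 2 higher from 0.5 h to 1 h, 5 to 11 higher and 0 to 1 lower from 1.5 h to 2 h. With shorter promoters (250 or 150 bases) 0 polymerase II genes had a PAC core. With the 150 bases, 12 of 19 genes of polymerases I and III had it. The causes were not tested. Depth limits the genes with few reads, such as RPC34 (73 in the 2 h library of series a), RPC11 (83 there) and RPC17 (85 in the 0 h library of series b).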
